A study of Mus musculus with 12 samples.

Results

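Gene expression in the medial prefrontal cortex was compared between unstressed mice of 2 inbred strains. The strains were C57BL/6JmsSlc (called B6 here) and BALB/cCrSlc (BALB/c), each with 3 control animals. These 6 libraries were taken from a series of 12, chosen because their titles place them in a control group. The other 6 libraries came from animals of the same strains after chronic restraint stress (CRS, 6 h per day for 21 days), again 3 per strain, and they served as a separate set in which the strain difference could be read. Control animals were handled like the restrained ones but not restrained. All mice were 9 to 10 weeks old, went through behavioural testing, and gave a 1.5 mm tissue punch of coronal brain sections, from which stranded poly(A) RNA libraries were made. No transgene, drug or genetic lesion was given for any group. The labels give neither the sex of the mice nor the litter, the time of day of collection or the sequencing batch. The question was how the cortical transcriptome of the strains differs before any stress is applied.

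B6 and BALB/c are widely used inbred lines that differ at many loci across the genome. BALB/c mice are known for more anxious behaviour and larger hormonal stress responses than B6 mice. The medial prefrontal cortex helps to regulate the hypothalamic-pituitary-adrenal axis and emotional behaviour. Expression differences between inbred strains include genes whose sequence, copy number or regulation differs, and genes of tissue components whose amount differs between samples.

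Values are TPM (transcript abundance relative to the library total), which are corrected for transcript length and sum to the same total in each library, so sequencing depth is unknown and precision rests on the spread between the 3 animals of a strain. In the control libraries, 14805 to 15417 genes reached 1 TPM. Mitochondrial transcripts took 18.92% to 21.14% of TPM in B6 and 22.25% to 23.88% in BALB/c. Across genes, the correlation of log2(TPM + 1) had a median of 0.976 for the 6 pairs of libraries within a strain and 0.948 for the 9 pairs between strains.

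Cortical markers were abundant in each library, while genes of neighbouring tissue varied between animals. Excitatory neuron genes such as Slc17a7 (745 TPM in B6 and 798 TPM in BALB/c on average) and Camk2a (896 and 978 TPM) were abundant in both strains. A list score, the mean log2(TPM + 1) of the 17 excitatory genes, ran from 5.20 to 5.85 in B6 and from 5.53 to 5.68 in BALB/c. The score of 15 striatal projection neuron genes was 7.29 in B6 replicate 2, 5.10 in replicate 3 and 4.05 in replicate 9, and it was 4.02, 4.79 and 3.84 in BALB/c replicates 5, 9 and 10. B6 replicate 2 therefore stood apart from the other 5 control libraries in striatal genes. The sum of the striatal genes was 3846 TPM in that library and 316.6 to 728.4 TPM in the other 5. Isl1, a striatal lineage factor that did not reach the expression filter, was listed at 0 in B6 replicate 9 and BALB/c replicate 10. The score of 17 oligodendrocyte and myelin genes was 7.16, 6.59 and 5.62 in B6 and 4.86, 5.77 and 3.94 in BALB/c. The part of these tissue differences in each gene result was not tested. For 2 fits that carry the myelin or the striatal score as a covariate, results are given where they end a call. A lost call need not mean a smaller difference, so the log2 difference in the myelin fit is given as well. In bulk tissue, fewer cells of a type and less RNA per cell cannot be told apart.

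**Figure D1:**
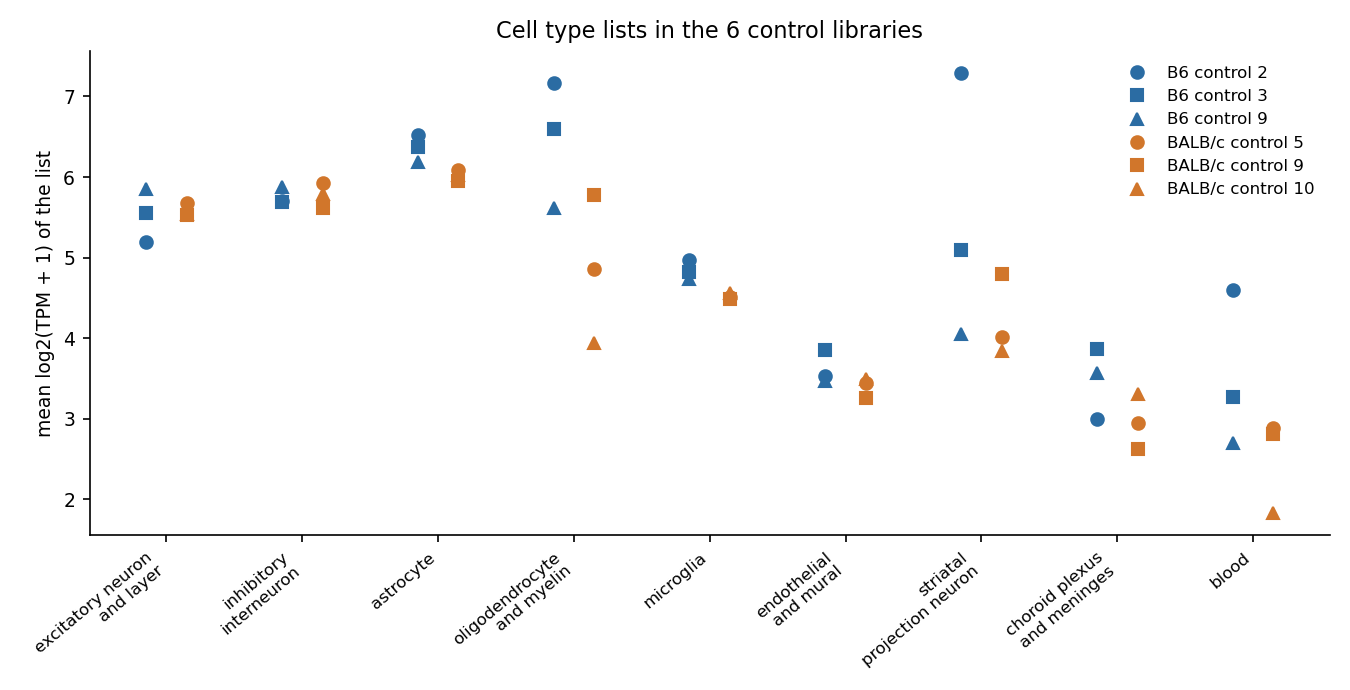
Mean log2(TPM + 1) of the genes of each cell type list (vertical axis) in the 6 control libraries, with B6 in blue and BALB/c in orange and 1 marker shape per animal. B6 replicate 2 lies at 7.29 for the striatal list, above the other 5 libraries, and the myelin scores of the strains overlap between 5.62 and 5.77.

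Of 15293 genes that reached 1 TPM in at least 3 of the 6 libraries, 463 (3.03%) differed between strains in limma, with p-values adjusted by Benjamini-Hochberg and a threshold of 0.05, and these are called different below. In BALB/c, 168 of them (1.10%) were higher and 295 (1.93%) were lower. A difference of at least 2-fold was found for 314 called genes, 141 higher and 173 lower. The median log2 difference over all genes was -0.10, so BALB/c values were slightly lower in general. Under median-of-ratios scaling that median was 0.01, and the calls were then 187 higher and 196 lower, which moved the lower share from 63.7% to 51.2%. After rescaling without mitochondrial transcripts, Bc1 and ribosomal RNA the lower share was 53.5%. Without B6 replicate 2 there were 319 calls, 137 higher and 182 lower, and without B6 replicate 9 there were 1022. With the myelin score as a covariate 188 genes were called, 179 of them among the 463.

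**Figure D2:**
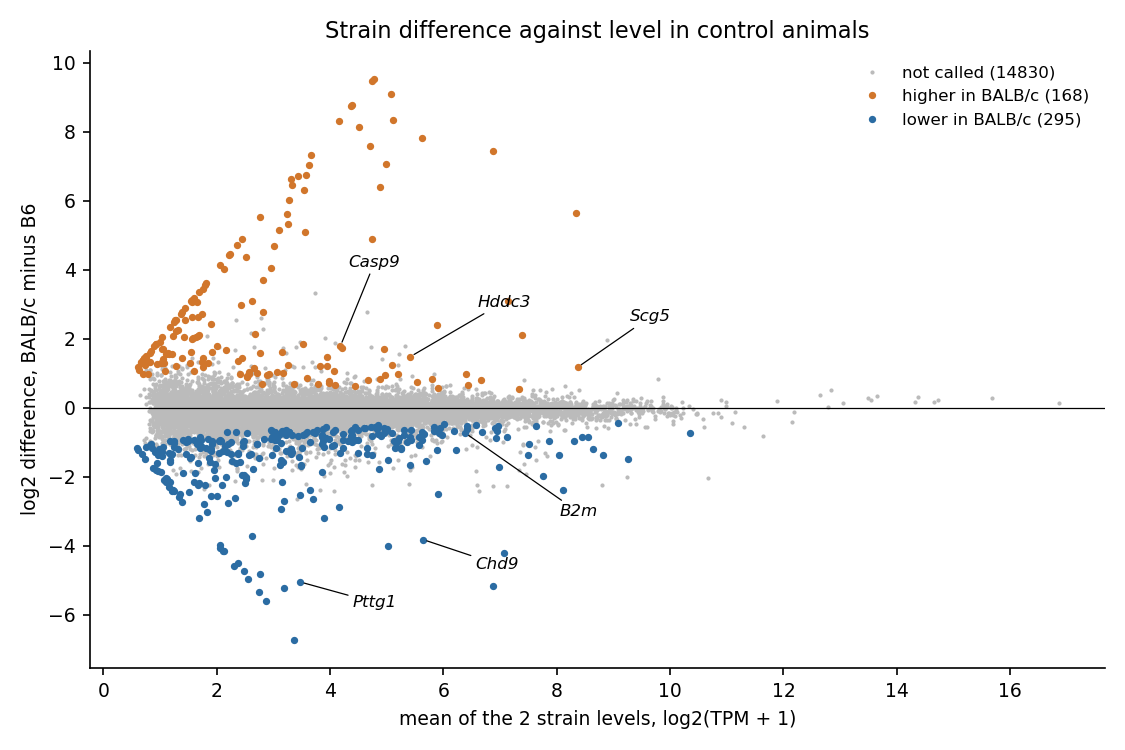
Log2 difference between strains, BALB/c minus B6 (vertical axis), against the mean of the strain levels as log2(TPM + 1) (horizontal axis), 1 point per gene tested. Called genes are colored by direction (168 orange, 295 blue), and the largest differences reach 9.53 above and -6.72 below 0.

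Many of the largest values belonged to genes with a near-identical copy elsewhere in the genome, for which reads can be assigned to the wrong copy. Such a copy was found for 163 called genes (35.2%) and for 1786 of all genes tested (11.7%). Among higher genes the share was 50.6%, and among lower genes it was 26.4%. Pseudogenes made up 99 of the 463 calls and 509 of the 15293 genes tested. The genes described next were therefore protein-coding genes with no near-identical copy, with groups that did not overlap and with a mean of at least 5 TPM in the higher strain. There were 153 such genes, 30 higher and 123 lower, and the 12 with the largest difference in each direction are given with their values.

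Genes higher in BALB/c included a cell death protease, a protease inhibitor, a receptor subunit and a neuroendocrine chaperone. Casp9, the initiator caspase of the mitochondrial apoptosis pathway (GRCm38 chr4:141793612-141815976), was at 7.92, 7.62 and 10.86 TPM in B6 versus 35.9, 31.1 and 30.9 TPM in BALB/c. All BALB/c libraries lay above all B6 libraries, a difference of 1.79 log2 units on the log2(TPM + 1) scale (SE 0.16, adjusted p 0.000629, limma). Serpina3n encodes a secreted serine protease inhibitor known as a marker of reactive astrocytes, and lies at chr12:104406729-104414329. It was at 8.01, 10.87 and 8.43 TPM in B6 versus 31.8, 33.5 and 32.3 TPM in BALB/c, a difference of 1.74 log2 units (SE 0.14, adjusted p 0.000358, limma). The BALB/c libraries were close together and more than 2-fold above the highest B6 library. Gfap, an astrocyte filament gene that often accompanies Serpina3n in reactive tissue, averaged 105.7 TPM in B6 and 58.3 TPM in BALB/c with overlapping groups (log2 difference -0.64, adjusted p 0.635, limma).

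Scg5 encodes the 7B2 protein, a chaperone of prohormone convertase 2 in peptide-secreting neurons, and it was the most abundant of the 12 higher genes. Its level was 187.6, 209.6 and 263.1 TPM in B6 and 518.3, 509.1 and 460.1 TPM in BALB/c, a difference of 1.18 log2 units (SE 0.14, adjusted p 0.00387, limma). With the myelin score as a covariate the difference was 1.04 and was not called (adjusted p 0.0789, limma). Hddc3, a phosphohydrolase related to the bacterial enzymes of the stringent response, was at 21.8, 22.96 and 29.0 TPM in B6 versus 70.8, 78.3 and 62.1 TPM in BALB/c. The groups were well apart, with a difference of 1.48 log2 units (SE 0.14, adjusted p 0.00125, limma). Baiap2l1, an adaptor that links curved membranes to actin, was near 0 in B6 (0.091, 0.121 and 0.140 TPM) and at 6.84, 4.98 and 4.87 TPM in BALB/c. Its log2 difference was 2.54 (SE 0.19, adjusted p 0.000246, limma), and because the B6 level is so low it was 4.69 with a pseudocount of 0.1 and 1.04 with a pseudocount of 5. Casp9, Hddc3, Baiap2l1 and Wdfy1 share exonic sequence with a gene on the other strand, and the use of strand in quantification is not given in the sources used here.

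The other 7 higher genes had log2 differences between 1.14 and 1.62. They were Ccl17, a chemokine ligand of CCR4 (1.17 TPM in B6 and 5.59 TPM in BALB/c), Pla2g4e, an N-acyltransferase that makes precursors of endocannabinoid-like lipids (2.34 and 7.92 TPM), and Ctla2a, a cysteine protease inhibitor (5.23 and 13.8 TPM). Wdfy1, an endosomal adaptor of Toll-like receptor signalling (8.24 and 20.6 TPM), the zinc finger gene Zfp940 (9.11 and 22.4 TPM), Rnf39, a RING finger gene in the class I region of the major histocompatibility complex (3.30 and 8.32 TPM), and Gabra2, described below, completed the group. The whole difference of Zfp940 lay in 1 of its 4 transcript entries. That entry was at 1.47, 1.57 and 0 TPM in B6 and 13.0, 19.2 and 12.6 TPM in BALB/c, whereas the other entries summed to 8.10 and 7.45 TPM on average. Most of the difference of Wdfy1 (93.2%) lay in 1 of its 8 entries, which averaged 5.28 TPM in B6 and 16.75 TPM in BALB/c. The other entries of Wdfy1 summed to 2.96 and 3.80 TPM on average, with overlapping groups. Calls were lost for Ccl17 without BALB/c replicate 10 (adjusted p 0.0556, limma) and for Ctla2a without BALB/c replicate 5 or 10 (0.0625 and 0.0561, limma). Calls for Pla2g4e and Rnf39 were lost without B6 replicate 3 or any single BALB/c replicate (adjusted p up to 0.125 and 0.14, limma). The myelin covariate also ended the calls of Ccl17, Pla2g4e, Ctla2a and Rnf39 (adjusted p 0.179, 0.346, 0.151 and 0.371, limma). Their log2 differences went from 1.62, 1.45, 1.25 and 1.14 to 1.31, 1.085, 1.17 and 0.78.

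**Figure D3:**
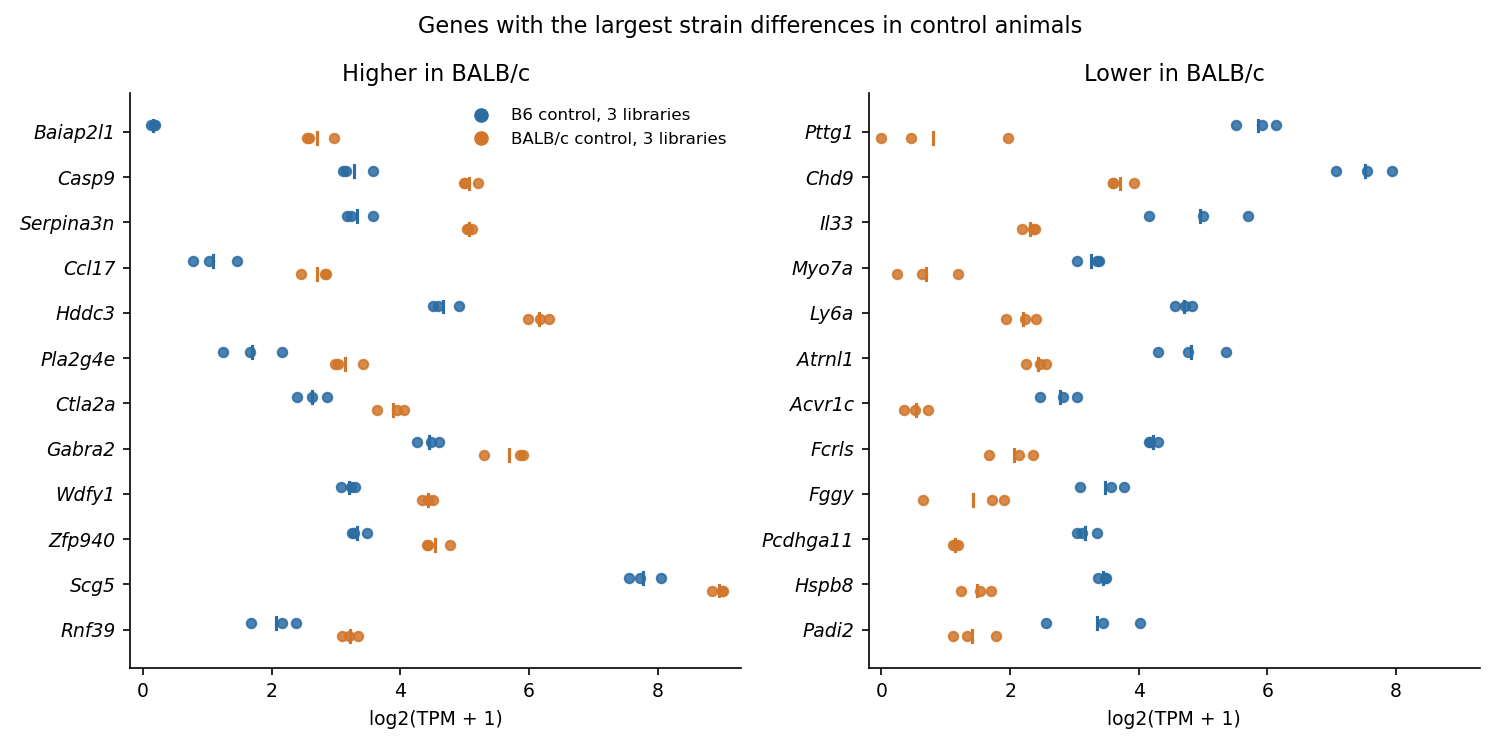
Levels as log2(TPM + 1) (horizontal axis) of the 12 most increased and 12 most decreased genes in BALB/c among those without near-identical copies. Points are the 3 libraries of a strain (B6 blue, BALB/c orange) and short vertical lines are their means. Groups that do not overlap were a condition for choosing these 24 genes. Pttg1 and Chd9 show the widest gaps.

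Among genes lower in BALB/c, Pttg1 and Chd9 had the largest differences. Pttg1 encodes securin, the inhibitor of the separase that splits sister chromatids (chr11:43420250-43426251). It was at 44.5, 59.2 and 69.5 TPM in B6 versus 0.381, 2.899 and 0 TPM in BALB/c, a difference of -5.04 log2 units (SE 0.46, adjusted p 0.000893, limma). Its most abundant transcript entry, at 20.8 to 37.1 TPM in B6, was listed at 0 in each of the 3 BALB/c libraries, and the other entries summed to 26.5 TPM in B6 and 1.09 TPM in BALB/c on average.

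Chd9, a chromodomain helicase that remodels chromatin (chr8:90828352-91054516), was at 133.5, 185.9 and 244.8 TPM in B6 versus 11.1, 11.1 and 14.1 TPM in BALB/c. The log2 difference was -3.81 (SE 0.22, adjusted p 5.42e-05, limma). The whole difference lay in 1 of its 15 transcript entries, which held 123, 174.5 and 231.9 TPM in B6 and 0.129, 0.320 and 0 TPM in BALB/c. The other 14 entries summed to 10.4, 11.4 and 12.9 TPM in B6 and to 11.0, 10.8 and 14.1 TPM in BALB/c. Chd9 without that entry thus had overlapping levels in the strains, and the gene shares exonic sequence with Gm45641 on the other strand.

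Ly6a encodes the surface antigen Sca-1, found on vascular cells in brain, and its level is known to follow the Ly6 haplotype of a strain. It was at 22.7, 25.4 and 27.5 TPM in B6 versus 2.83, 4.31 and 3.71 TPM in BALB/c, a difference of -2.51 log2 units (SE 0.16, adjusted p 0.000103, limma; chr15:74994877-74998031). The 17 endothelial and mural genes held no call, and their median difference was -0.18 against -0.10 for all genes. Their summed level was 299.0 to 372.2 TPM in B6 and 268.8 to 298.5 TPM in BALB/c, without overlap, and the part of vascular content in the difference of Ly6a was not tested. Fcrls, a microglial gene related to Fc receptors (chr3:87250758-87263738), was at 17.1, 16.9 and 18.7 TPM in B6 and 3.39, 2.19 and 4.14 TPM in BALB/c (log2 difference -2.16, SE 0.19, adjusted p 0.000678, limma). All B6 libraries lay far above all BALB/c libraries.

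Il33 encodes a nuclear alarmin cytokine made in brain by oligodendrocytes and astrocytes (chr19:29925114-29960718). It was at 51.2, 31.1 and 16.8 TPM in B6 versus 3.56, 4.10 and 4.23 TPM in BALB/c, a difference of -2.65 log2 units (SE 0.34, adjusted p 0.00636, limma). Across the 3 B6 animals Il33 had the order of the myelin score, and across the 3 BALB/c animals it did not. An order of 3 animals is no test. The part of myelin content in the differences of Il33 and Padi2 was not tested. With the myelin score as a covariate the difference of Il33 was -1.997 and was not called (adjusted p 0.116, limma). Padi2, which citrullinates proteins and is expressed in oligodendrocytes, was at 15.3, 9.86 and 4.92 TPM in B6 versus 1.52, 2.42 and 1.17 TPM in BALB/c, in the order of the myelin score within both strains. Its difference of -1.94 log2 units (SE 0.36, adjusted p 0.0336, limma) was -0.97 with the covariate and then not called (adjusted p 0.339, limma), nor was it called after median-of-ratios scaling (0.0711, limma). The call of Il33 was lost without BALB/c replicate 5 (adjusted p 0.0535, limma), and that of Padi2 was lost on leaving out any 1 control library except B6 replicate 9 (adjusted p up to 0.153, limma).

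The remaining lower genes had log2 differences from -2.57 to -1.95. Myo7a, an actin motor best known from sensory hair cells and the retina, averaged 8.60 TPM in B6 and 0.673 TPM in BALB/c. Atrnl1, a transmembrane relative of attractin, averaged 28.2 and 4.40 TPM, and Acvr1c, the type I receptor ALK7 for activin and nodal ligands, averaged 5.94 and 0.454 TPM. Hspb8, a small heat shock protein that acts with Bag3 in protein quality control, averaged 9.87 and 1.83 TPM, the protocadherin Pcdhga11 averaged 8.01 and 1.22 TPM, and the carbohydrate kinase gene Fggy averaged 10.3 and 1.87 TPM. Of these 6, all but Fggy were called in each of the 6 fits that left out 1 library. Fggy was lost without B6 replicate 3 or BALB/c replicate 5 (adjusted p 0.086 and 0.075, limma), and also with a pseudocount of 0.1 or with no filter on low values. Of all 24 genes, 16 kept their call in each of these 6 fits. Acvr1c, Pcdhga11 and Padi2 also share exonic sequence with a gene on the other strand.

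The functional lists below hold genes of stress, transmission and immune pathways, with their counts read against 1.10% of all genes called higher and 1.93% called lower. The antigen presentation list held 18 tested genes of 36. Of these, 1 was higher and 3 were lower in BALB/c, and the median difference was -0.31 against -0.10 for all genes. Class I molecules of the major histocompatibility complex present peptides on the cell surface together with the light chain beta-2 microglobulin. B2m, the gene of that light chain (chr2:122147686-122153083), was at 89.5, 121.0 and 111.0 TPM in B6 versus 59.9, 61.6 and 69.7 TPM in BALB/c, a difference of -0.73 log2 units (SE 0.14, adjusted p 0.0322, limma). H2-D1, a classical class I heavy chain (chr17:35262730-35267499), was at 24.6, 23.9 and 26.8 TPM in B6 versus 15.4, 15.0 and 15.5 TPM in BALB/c (log2 difference -0.68, SE 0.11, adjusted p 0.0152, limma). The strains carry different haplotypes in this region, H2b in B6 and H2d in BALB/c, and reads were compared with a B6 reference.

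H2-T22, a nonclassical class I gene whose product is seen by some gamma delta T cells, was at 14.4, 19.1 and 23.1 TPM in B6 versus 7.10, 4.11 and 4.57 TPM in BALB/c. Its log2 difference was -1.67 (SE 0.23, adjusted p 0.00793, limma). H2-T10, its near-identical neighbour, was higher in BALB/c at a low level (0.196 to 0.266 TPM in B6, 1.36 to 1.49 TPM in BALB/c; log2 difference 0.99, adjusted p 0.0317, limma). Since reads can pass between these copies, the sum of both was also tested, and it was lower in BALB/c by a log2 difference of -1.38 (adjusted p 0.0177, limma). H2-T22 shares exonic sequence with A930015D03Rik on the other strand, which was itself called, and H2-T10 does so with BC023719. H2-K1 was at 22.4 TPM in B6 and 14.9 TPM in BALB/c without overlap and was not called (adjusted p 0.157, limma). The class II gene H2-Ea, which is known to be silent in B6 through a deletion, did not reach the filter. It was listed at 0 in the 3 B6 libraries versus 0.913, 0.139 and 1.30 TPM in BALB/c. B2m, H2-D1 and H2-T10 were not called once the myelin score was a covariate (adjusted p 0.0902, 0.125 and 0.331, limma). Their log2 differences in that fit were -0.93, -0.75 and 0.96. The striatal covariate ended the call of H2-T10 (0.0936, limma), and median-of-ratios scaling ended that of B2m (0.0763, limma). Leaving out B6 replicate 3 or any BALB/c replicate ended the calls of B2m and H2-D1 (adjusted p up to 0.147 and 0.0806, limma), and leaving out BALB/c replicate 10 ended that of H2-T22 (0.0528, limma). The call of H2-T10 was lost on leaving out any 1 library except B6 replicate 9 (adjusted p up to 0.135, limma).

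Interferon-stimulated genes were represented by 20 tested genes of 29, with 0 higher and 1 lower and a median difference of -0.37. Ifit3, an interferon-induced protein with tetratricopeptide repeats, was the gene called. It was at 6.33, 7.36 and 6.94 TPM in B6 versus 0.678, 1.05 and 1.12 TPM in BALB/c, a difference of -2.02 log2 units (SE 0.17, adjusted p 0.00048, limma; chr19:34583531-34588731). Summed with its near-identical copy Ifit3b the difference was -1.37 (adjusted p 0.00299, limma). BALB/c libraries lay below all B6 libraries for 10 of the 20 genes, against 19.0% of all genes, and above them for 0, against 4.06% of all genes. The 10 included Ifi27 (55.9 TPM in B6 and 34.2 TPM in BALB/c), Ifitm3 (20.3 and 12.6 TPM) and Bst2 (5.30 and 3.21 TPM), none of which was called (adjusted p 0.231, 0.195 and 0.11, limma).

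Several of these immune genes carry the core of the interferon-stimulated response element near their start. The promoter windows of RefSeq (build GRCm38.p6, 250 bases before to 50 bases after each gene's start) were searched for GAAANNGAAA on either strand, which reads TTTCNNTTTC on the other. The letters occurred in 1131 of 32851 windows (3.44%), in 387 of 11006 windows of tested genes (3.52%), in 9 of 16 windows of the interferon list and in 3 of 13 of the antigen presentation list (H2-T22, H2-T23 and B2m). The stretches around the matches are shown for the 3 called genes that hold one, written 5′ to 3′ on the gene's own strand, with the match in capitals. They cover chr19:34583328-34583461 on the plus strand, chr2:122147503-122147602 on the plus strand and chr17:36042879-36042978 on the minus strand.
Ifit3: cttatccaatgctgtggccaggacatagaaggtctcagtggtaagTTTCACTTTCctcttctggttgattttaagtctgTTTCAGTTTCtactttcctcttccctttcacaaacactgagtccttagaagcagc
B2m: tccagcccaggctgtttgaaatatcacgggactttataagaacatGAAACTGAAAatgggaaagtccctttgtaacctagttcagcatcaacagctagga
H2-T22: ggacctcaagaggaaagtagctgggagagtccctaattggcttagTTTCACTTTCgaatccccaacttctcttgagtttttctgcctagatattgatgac
Ifit3 has 2 matches within this stretch, and B2m and H2-T22 have 1 each. The window of H2-D1 holds none. These are letters of the reference genome, which is that of C57BL/6J, and the BALB/c sequence of these promoters was not analysed here.

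Microglial genes differed at complement genes. Of 15 tested markers, 0 were higher and 2 were lower, and the median difference was -0.28. The called genes were C1qb and C1qc, chains of the complement protein C1q that tags synapses and debris for removal. C1qb was at 70.7, 73.1 and 56.6 TPM in B6 versus 35.8, 31.3 and 37.0 TPM in BALB/c (log2 difference -0.92, SE 0.13, adjusted p 0.0105, limma). C1qc was at 59.0, 62.7 and 46.5 TPM in B6 versus 29.3, 30.9 and 32.5 TPM in BALB/c (log2 difference -0.83, SE 0.13, adjusted p 0.0177, limma). C1qa, the gene of the third chain, averaged 69.7 and 56.6 TPM and was not called (adjusted p 0.245, limma). Homeostatic markers had small differences that were not called, with P2ry12 at 34.8 TPM in B6 and 40.7 TPM in BALB/c, Tmem119 at 17.0 and 18.5 TPM, and Cx3cr1 at 23.4 and 21.0 TPM. The summed list was at 488.0 to 595.0 TPM in B6 and 411.8 to 432.4 TPM in BALB/c, without overlap. The calls of C1qb and C1qc were lost once the myelin score was a covariate (adjusted p 0.157 and 0.271, limma), at log2 differences of -0.89 and -0.70. That of C1qc was also lost after median-of-ratios scaling (adjusted p 0.0695, limma). Without B6 replicate 3 or BALB/c replicate 5 neither was called (adjusted p 0.0591 and 0.0592 for C1qb, 0.0824 and 0.0954 for C1qc, limma), and C1qc was also lost without B6 replicate 2 or BALB/c replicates 9 or 10.

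The other cell type lists held almost no calls. The differences of all 12 astrocyte genes were below 0, with a median of -0.36 (-0.24 under median-of-ratios scaling), and 1 gene, Aldoc, a glycolytic aldolase, was called (646.7, 624.5 and 629.9 TPM in B6, and 455.6, 476.6 and 457.9 TPM in BALB/c; log2 difference -0.45, SE 0.09, adjusted p 0.0417, limma). That call was lost in 9 of 12 alternatives that kept all libraries, median-of-ratios scaling among them (adjusted p 0.176, limma) and the myelin and striatal covariates (0.338 and 0.0545, limma), and on leaving out any 1 library except B6 replicate 9 (up to 0.191, limma). The log2 difference of Aldoc was -0.41 with the myelin covariate and -0.43 with the striatal one. Myelin genes had the lowest median of all lists (-1.81), and Mbp averaged 3104 TPM in B6 and 845.4 TPM in BALB/c. None of the 17 was called, their summed level ran from 2744 to 10290 TPM in B6 and from 586.8 to 3322 TPM in BALB/c, and the median was -1.43 without B6 replicate 2. Without B6 replicate 9 the median was -2.26 and 7 of the 17 were called lower, 1 was called lower without BALB/c replicate 9, and 2 were called lower with all 12 libraries in the fit. The striatal median was -1.38 with 0 of 15 called, -0.42 without B6 replicate 2, -2.13 without B6 replicate 9 and 0.50 with the myelin score as a covariate. Excitatory neuron genes (median 0.16, 17 tested), interneuron genes (-0.14, 13 tested), choroid plexus and meningeal genes (-0.50, 8 tested) and blood genes (-1.03, 4 tested) held 0 calls.

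Genes of inhibitory transmission differed at 1 subunit. Gabra2 encodes the alpha2 subunit of the GABA-A receptor, which carries part of the calming action of benzodiazepines, and an intronic deletion that lowers its expression is known in C57BL/6J (chr5:70957597-71095849). It was at 21.3, 23.2 and 18.2 TPM in B6 versus 59.2, 38.3 and 57.3 TPM in BALB/c, a difference of 1.25 log2 units (SE 0.18, adjusted p 0.0118, limma). BALB/c replicate 9 was the lowest of its group and still above all B6 libraries. The other 13 tested GABA receptor genes held 0 calls. Gabrb2, a beta subunit, averaged 50.8 TPM in B6 and 51.1 TPM in BALB/c, with overlapping groups. The median of the list was -0.04, and 0.08 under median-of-ratios scaling. The call of Gabra2 was lost without BALB/c replicate 5 or 10 (adjusted p 0.0709 and 0.0719, limma) and once the myelin score was a covariate (1.07, adjusted p 0.204, limma).

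Glutamate receptor genes held 1 call among 22, and it lay at the threshold. Gria1, the GluA1 subunit of AMPA receptors, was at 146.8, 162.7 and 136.2 TPM in B6 versus 107.8, 93.5 and 104.9 TPM in BALB/c (log2 difference -0.54, SE 0.11, adjusted p 0.0492, limma). The groups did not overlap, but the call was lost in all 12 alternatives that kept the 6 libraries and on leaving out any 1 library except B6 replicate 9 (adjusted p up to 0.195, limma). Its adjusted p was 0.318 with the myelin covariate and 0.0829 with the striatal one (limma), at log2 differences of -0.56 and -0.54. Gria2 (213.2 TPM in B6 and 197.0 TPM in BALB/c) and the obligate NMDA receptor subunit Grin1 (187.0 and 182.1 TPM) had overlapping groups. Presynaptic release genes (29 tested, median 0.07) and voltage-gated potassium channels (25 tested, median -0.01) held 0 calls, with Snap25 at 1821 and 2016 TPM. Their medians were 0.19 and 0.10 under median-of-ratios scaling.

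Of 25 tested monoamine genes, Maob was called. It encodes a mitochondrial monoamine oxidase that is abundant in astrocytes, and it was at 20.1, 20.4 and 20.3 TPM in B6 versus 12.1, 11.3 and 12.6 TPM in BALB/c (log2 difference -0.71, SE 0.11, adjusted p 0.0124, limma). The groups did not overlap, and the SD was 0.146 TPM in B6 and 0.613 TPM in BALB/c. Maoa was at 14.2 and 11.6 TPM without overlap and was not called (adjusted p 0.252, limma), and the serotonin receptor gene Htr2c was at 12.9 and 7.74 TPM without overlap and also not called (adjusted p 0.0594, limma). Tph2 and the transporter genes Slc6a2, Slc6a3 and Slc6a4, which mark monoamine cell bodies outside the cortex, did not reach the filter. The call of Maob was lost once the myelin score was a covariate (log2 difference -0.79, adjusted p 0.114, limma). It was also lost without B6 replicate 3 or any BALB/c replicate (adjusted p up to 0.0726, limma).

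The stress hormone axis held 16 tested genes of 20, of which 0 were higher and 2 were lower, with a median of -0.16. Tsc22d3, the glucocorticoid-induced leucine zipper gene, was at 69.2, 54.3 and 65.7 TPM in B6 versus 38.8, 36.3 and 28.5 TPM in BALB/c (log2 difference -0.85, SE 0.15, adjusted p 0.0263, limma). Hsd11b1, the enzyme that regenerates active glucocorticoid within cells, was at 10.9, 10.9 and 9.06 TPM in B6 versus 5.85, 6.09 and 6.16 TPM in BALB/c (log2 difference -0.68, SE 0.13, adjusted p 0.0371, limma). The receptors themselves were not called, with Nr3c1 at 37.9 and 30.4 TPM and Nr3c2 at 12.3 and 7.43 TPM (adjusted p 0.347 and 0.149, limma). Other glucocorticoid-responsive genes, Sgk1 (79.8 and 38.9 TPM, adjusted p 0.204), Fkbp5 (13.2 and 10.2 TPM, 0.353) and Per1 (37.8 and 28.6 TPM, 0.543), were not called either (limma). Sgk1 is also abundant in oligodendrocytes. Both calls were lost once the myelin score was a covariate (adjusted p 0.343 and 0.39, limma) and without B6 replicate 2 or any BALB/c replicate (up to 0.101 and 0.147, limma), and that of Hsd11b1 also without B6 replicate 3 (0.154, limma) and after median-of-ratios scaling (0.107, limma). The striatal covariate also ended both calls (adjusted p 0.0654 for Tsc22d3 and 0.102 for Hsd11b1, limma). With the myelin covariate the log2 difference was -0.67 for Tsc22d3 and -0.57 for Hsd11b1. Immediate early genes held 0 calls among 22 and a median of 0.00, with Fos at 42.3 TPM in B6 and 42.4 TPM in BALB/c and Egr1 at 160.4 and 159.5 TPM.

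Genes with known sequence or copy number variants among inbred strains served as a check of the labels. Of 10 such genes 6 were tested, and Ly6a and Gabra2 were called. Nnt, a mitochondrial transhydrogenase gene with an exon deletion known in C57BL/6J, was at 8.52, 9.38 and 9.10 TPM in the C57BL/6JmsSlc animals and at 13.1, 12.4 and 12.3 TPM in BALB/c. The groups did not overlap, the log2 difference was 0.44 (SE 0.11), and the gene was called after median-of-ratios scaling (adjusted p 0.0369, limma) but not on the deposited scale (0.0999, limma). Glo1, a glyoxalase gene with a known copy number variant, was at 83.2, 89.7 and 91.4 TPM in B6 versus 68.5, 64.4 and 64.6 TPM in BALB/c (log2 difference -0.41, SE 0.09, adjusted p 0.0699, limma). Summed with its pseudogene Glo1-ps the difference was 0.33 (adjusted p 0.136, limma), so the direction for Glo1 depends on how its reads are divided. Most of the fall of Glo1 itself (87.3%) lay in 1 of its 10 transcript entries, which averaged 36.9 TPM in B6 and 17.4 TPM in BALB/c. The other entries of Glo1 summed to 51.2 and 48.4 TPM on average, with overlapping groups. Ahr (3.19 and 2.53 TPM) had overlapping groups.

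**Figure D4:**
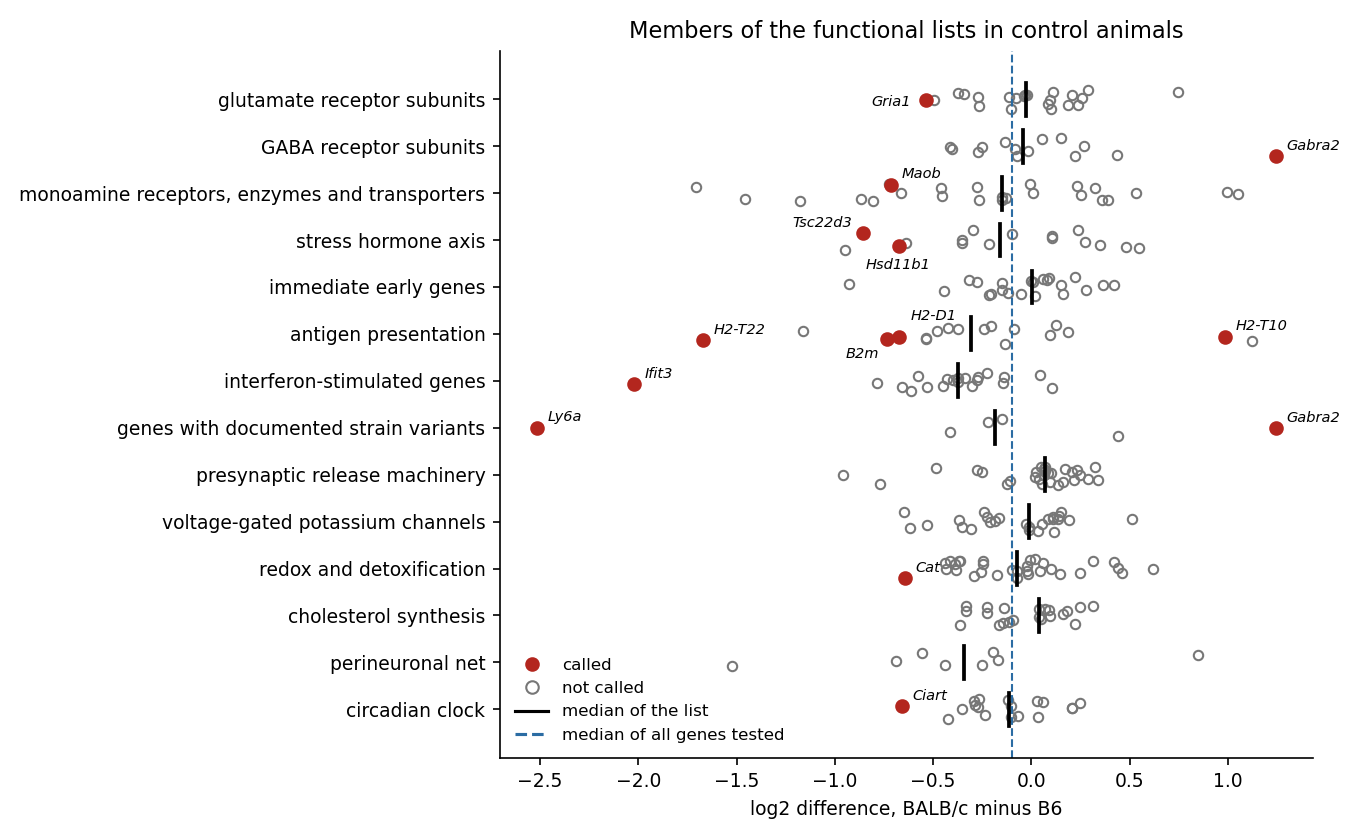
Log2 difference between strains, BALB/c minus B6 (horizontal axis), for each tested member of the functional lists (rows). Filled red points are called genes, open points are not called, black bars are list medians and the dashed line is the median of all genes at -0.10. Ly6a and Ifit3 lie farthest to the left, at -2.51 and -2.02, and Gabra2 farthest to the right, at 1.25.

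Metabolic and clock lists held single calls. Cat, the peroxisomal catalase gene, was at 29.6, 28.6 and 23.6 TPM in B6 versus 15.6, 17.6 and 17.9 TPM in BALB/c (log2 difference -0.65, SE 0.13, adjusted p 0.0428, limma), the 1 call among 31 redox genes, whose median was -0.07. It was not called after median-of-ratios scaling (adjusted p 0.153, limma) or on leaving out any 1 library except B6 replicate 9 (up to 0.168, limma). The myelin and striatal covariates also ended the call (adjusted p 0.425 and 0.101, limma), at log2 differences of -0.52 and -0.54. Ciart, a repressor of the circadian clock, was at 15.9, 16.5 and 16.0 TPM in B6 versus 10.6, 8.93 and 10.1 TPM in BALB/c (log2 difference -0.66, SE 0.12, adjusted p 0.0274, limma), the 1 call among 18 clock genes. Dbp, Per2 and Nr1d1 were not called (adjusted p 0.383, 0.837 and 0.797, limma). The call of Ciart was lost on leaving out any 1 library except B6 replicate 9 (adjusted p up to 0.123, limma). It was also lost with the myelin covariate (log2 difference -0.74, adjusted p 0.194, limma). The annotated near-identical copy of Ciart, Gm9176, was not among the genes tested. Cholesterol synthesis (21 tested, median 0.04) and perineuronal net genes (8 tested, median -0.34) held 0 calls.

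The zinc finger family named Zfp held 328 tested genes, 2 higher and 6 lower (2.44% called). Its median was -0.12 on the deposited scale and -0.02 under median-of-ratios scaling. Beside Zfp940 the genes with the lowest p were Zfp758, Zfp983 and Zfp772. Zfp758 averaged 5.46 TPM in B6 and 2.02 TPM in BALB/c, Zfp772 averaged 5.64 and 2.38 TPM, and Zfp983 averaged 4.33 and 9.38 TPM (log2 differences -1.10, -0.98 and 0.96). The whole fall of Zfp758 lay in 1 of its 4 transcript entries (4.36 TPM in B6 and 0.40 TPM in BALB/c). Its other entries summed to 1.09 TPM in B6 and 1.62 TPM in BALB/c on average. Summed with its near-identical copy Gm10509, Zfp983 was not called (0.50, adjusted p 0.119, limma). The calls of Zfp758, Zfp772 and Zfp983 were each lost without BALB/c replicate 5 (adjusted p 0.0537, 0.0899 and 0.0692, limma). They were also lost with the myelin covariate (adjusted p 0.195, 0.0551 and 0.0774, limma), at log2 differences of -0.96, -1.27 and 1.11. Zfp772 was called in only 1 of the 6 fits that left out 1 library, the one without B6 replicate 9. Zfp758 was also lost without BALB/c replicate 10 and Zfp983 without B6 replicate 3 or BALB/c replicate 9 (adjusted p 0.0556, 0.0568 and 0.0613, limma), and Zfp940 was called in all 6.

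The same strain contrast was then read in the 6 restrained animals, which share no library with the controls. The tissue lists also separated these animals: the summed striatal genes were at 1430 to 3185 TPM in restrained B6 mice and at 310.8 to 392.1 TPM in restrained BALB/c mice, with 14 of 15 called lower, as were 13 of 17 myelin genes. The part of these lists in the counts that follow was not tested. There 1336 of the 15293 genes were called (8.74%), 438 higher (2.86%) and 898 lower (5.87%). Of the 463 genes called in controls, 457 (98.7%) had the same sign, against 75.7% of all genes, and 361 were called in the same direction, with 0 called in the opposite one. These 361 were 78.0% of the control calls and 27.0% of the calls in restrained animals. All 24 genes with the largest differences kept their direction, and 22 of them were called, against 8.74% of all genes. The exceptions were Ccl17 (1.62 in controls and 1.09 in restrained animals, adjusted p 0.0555, limma) and Ctla2a (1.25 and 0.84, adjusted p 0.0582, limma). Pttg1 was -5.04 and -4.93, Chd9 -3.81 and -3.78, Casp9 1.79 and 1.62, and Serpina3n 1.74 and 1.83.

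Of 17 further named genes, the called list members, 10 were called in the same direction in restrained animals. C1qb (-0.92 and -0.86), C1qc (-0.83 and -0.87), B2m (-0.73 and -0.65), Maob (-0.71 and -0.66) and Tsc22d3 (-0.85 and -0.68) were called in both sets of animals. H2-D1 (-0.36, adjusted p 0.141), Hsd11b1 (-0.26, 0.537), Gria1 (-0.37, 0.356), H2-T10 (0.57, 0.256), Cat (-0.61, 0.0591) and Zfp983 (0.49, 0.0849) were not called in restrained animals (limma). The groups of Hsd11b1, Gria1 and H2-T10 overlapped there. Ciart was also not called and was the 1 named and called gene with the opposite sign (0.30, adjusted p 0.244, limma). The difference of the strain effect between restrained and control animals was called for 0 genes in limma, with 388 at an unadjusted p under 0.05 (2.54%) and a smallest adjusted p of 0.65, so no gene was shown to differ between the sets.

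**Figure D5:**
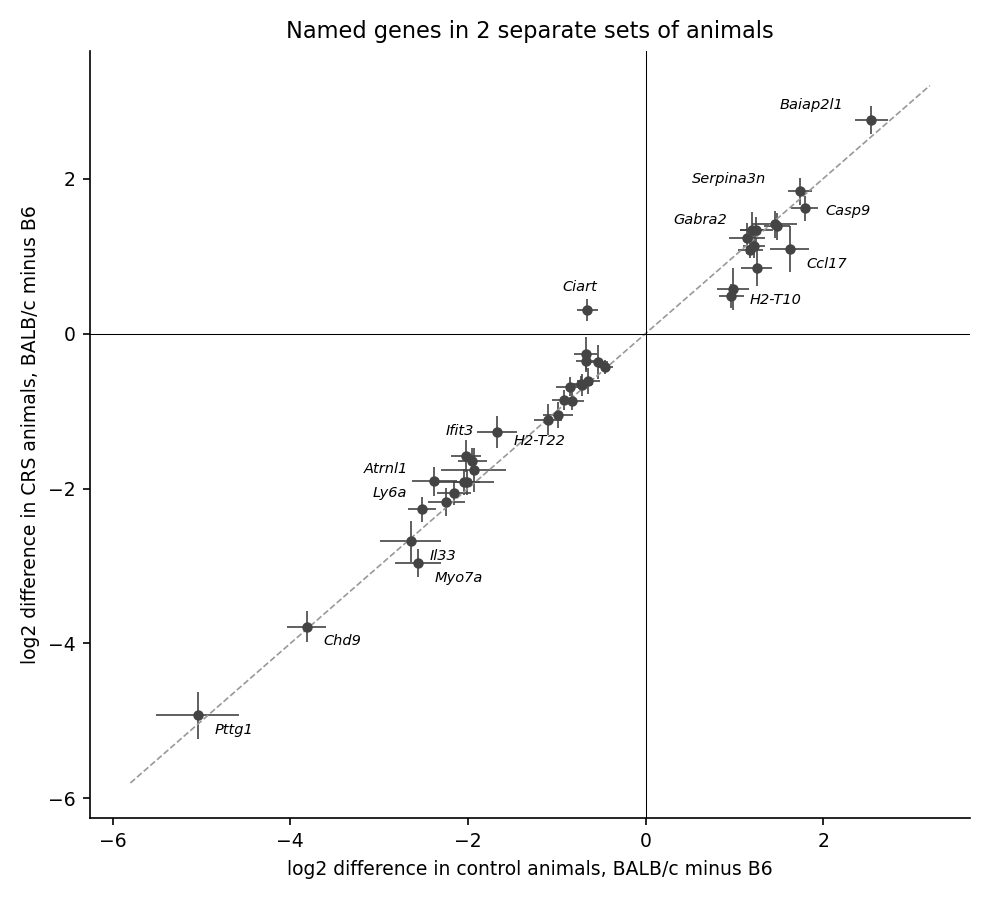
Log2 difference between strains, BALB/c minus B6, in control animals (horizontal axis) and in CRS animals (vertical axis) for the 41 named genes that were called in controls. Bars are standard errors from limma and the dashed line marks equal differences. Except for Ciart, at -0.66 and 0.30, each gene lies on the same side of 0 on both axes.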

How the data were processed

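Poly(A) RNA of 12 medial prefrontal cortex punches was sequenced, per the labels' protocols, with a stranded kit and paired reads. The submitters' processing notes name cutadapt 2.9, Salmon and the build GRCm38. Their roles, the annotation and the use of strand are not given in the sources used here. The authors deposited 1 table of 147902 transcript rows under 55678 gene names. The authors deposited TPM values, transcript levels scaled by length and library total, a unit that the table does not name and that was read from its equal library sums. Depth is therefore unknown. GRCm38 is the C57BL/6J genome, and its effect on BALB/c values was not tested.

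Transcript rows were summed by gene name. Genes at 1 TPM or more in at least 3 of the 6 control libraries (15293) were tested on log2(TPM + 1) with limma 3.58.1 in R 4.3.3 (intensity trend, Benjamini-Hochberg adjustment over all genes tested, threshold 0.05). Fold changes on this scale understate those of low genes. The CRS animals were fitted separately, and all 12 libraries gave the difference of the strain effects. Each label carries its own animal number within a group, but litter and batch are not given, so p-values measure the spread between these samples. A near-identical copy shared at least 95% identity over 80% of the shorter transcript (blastn 2.17.0, at least 200 bases). Positions are from GENCODE on GRCm38, with exon overlaps from bedtools 2.31.1. Promoters are from RefSeq.

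Named genes were called, protein coding, without a near-identical copy, with strains that did not overlap and a mean of at least 5 TPM in the higher strain. The 12 largest differences in each direction were taken, plus up to 4 called genes per list with the lowest p, documented strain variants, and abundant list members as examples that were not called. Members and lists were chosen with earlier results of these data known. Alternatives changed the pseudocount, filter, scaling, libraries, covariates and treatment of near-identical genes. The script was tested on simulated data. Some list members are not reported here.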

Additional observations from a re-analysis of the deposited data

Results flagged for a closer look

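Ciart, a clock repressor, had opposite strain differences in the 2 sets of animals without overlap in either. In controls it was lower in BALB/c (log2 difference -0.66), and in CRS animals it was at 9.70, 9.79 and 11.9 TPM in B6 versus 12.1, 14.2 and 13.0 TPM in BALB/c. The difference of the strain effects was 0.96 and was not called (adjusted p 0.741, limma). The time of day of collection is not given in the labels, and its part was not tested.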

How the results depend on the processing

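Of the 41 named genes called, 16 kept their call in every setting run, 24 lost it in at least 1 setting that kept all libraries, 24 lost it on leaving out at least 1 library, and 0 reversed. The covariate for the myelin score ended 23 of these calls. Against 463 calls (168 higher, 295 lower), that covariate gave 188 (85 higher, 103 lower), all 12 libraries in the fit gave 781 (564 lower), and a mean of at least 5 TPM gave 257 (86 higher, 171 lower). Near-identical genes summed gave 282 (81 higher), and only genes without such a copy gave 239 (73 higher, 166 lower). Lower calls were 195 with no filter and 196 under median-of-ratios scaling. Leaving out 1 library gave 224 to 1022 calls, 100 to 277 higher and 124 to 745 lower. The count was 1022 without B6 replicate 9, 319 without B6 replicate 2, 256 without B6 replicate 3, and 224, 270 and 227 without BALB/c replicates 5, 9 and 10. No paired analysis was possible because the control groups share only 1 animal number, which names different animals. Sequencing depth is unknown, so the precision of low genes could not be assessed from counts.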

Other observations

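The following genes were singled out after their values were seen and stand for no group. Srd5a1, a steroid 5-alpha reductase that makes neurosteroid precursors, averaged 7.80 TPM in B6 and 1.92 TPM in BALB/c (log2 difference -1.59, SE 0.20, adjusted p 0.00504, limma), and was -1.59 in restrained animals. Aldh1a1, which makes retinoic acid, averaged 14.3 and 4.04 TPM (-1.52, adjusted p 0.031, limma). Naaa, a lysosomal amidase that breaks down palmitoylethanolamide, averaged 27.1 and 11.5 TPM (-1.16, adjusted p 0.00644, limma). The astrocyte neurotensin receptor gene Ntsr2 averaged 82.2 and 46.8 TPM (-0.80, adjusted p 0.00446, limma).

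Higher in BALB/c were Stat3, a cytokine signal transducer (20.9 and 38.4 TPM; log2 difference 0.85, adjusted p 0.00504, limma), Cd59a, an inhibitor of the complement membrane attack complex (3.64 and 8.24 TPM; 1.01, adjusted p 0.0282, limma), and Kcnj10, the glial potassium channel Kir4.1 (47.8 and 71.7 TPM; 0.58, adjusted p 0.0463, limma). Diablo, which relieves inhibition of caspases, was lower (23.5 and 13.5 TPM; -0.76, adjusted p 0.0345, limma), whereas Casp9 was higher.

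Some called genes lay close together, in runs with gaps of at most 1 Mb that were chosen after the data were seen. Only runs of at least 4 called genes were kept, and each span starts and ends at a called gene. A high share of calls within a span is thus built in, and it is no test against the 3.03% called among all genes. On chr4:41769467-43053254, 12 of 21 tested genes were called, all lower, and 10 of them have near-identical copies. On chr2:121460235-122153083, 4 of 9 were called, all lower (Mfap1a, Mfap1b, Eif3j1 and B2m), and 3 of these 4 have near-identical copies. On chr17:35262730-36947986, which holds class I genes, 5 of 32 were called, 2 higher and 3 lower, and 3 of these 5 have near-identical copies.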
